A study of Mus musculus with 16 samples.

Results

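Rod photoreceptors at 24 months of age were compared with rods at 18 months, using 8 of the 16 libraries of a study of rod ageing in mice, 4 at each of those ages. The members were chosen by the age in the labels and by no measured value. All animals were C57BL/6J mice carrying Nrlp-GFP, a green fluorescent protein under the control region of the rod-fate gene Nrl, so the reporter marks rods and every group carried it. The groups are written 18M and 24M, and the other libraries of the study came from animals of 3 months (3M) and 12 months (12M). Retinas were dissociated with papain, GFP-positive cells were sorted, purity was checked by sorting again, and total RNA was made into libraries with a stranded kit for small inputs. The labels call the 4 libraries of an age biological replicates. The sources used here do not say whether a library came from 1 mouse or from a pool, so the p-values measure the spread between these samples. In such bulk RNA, fewer cells of a type and less RNA per cell cannot be told apart.

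Rods are the dim-light receptors of the retina. Their outer segment holds stacked discs in which light activates the G protein transducin, which activates a phosphodiesterase and closes cation channels, and the discs are shed and renewed every day. Rods keep a high energy turnover throughout life, and their number and sensitivity decline in old animals.

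Total estimated counts were 20724678 to 28791777 in the 8 libraries. Expression is given in CPM, the share of a library's counts on a scale shared by all libraries, with TMM factors that correct for composition. The summed CPM of 10 rod markers, among them Gnat1 and Sag, was 25800 to 30800 at 18M and 26100 to 34200 at 24M, so the labelled cell type dominated each library. Summed cone markers were 88.5 to 95.6 CPM at 18M and 84.3 to 110 at 24M, bipolar cell markers 248 to 267 and 218 to 270, Müller glia markers 370 to 529 and 402 to 537, and microglia markers 40 to 50.2 and 39.7 to 47.1. Of the microglia markers, C1qa and Lyz2 stayed at or below 0.17 CPM, whereas Cx3cr1 was at 2.04 to 4.01, Trem2 at 3.54 to 5.07 and Ptprc at 3.56 to 5.19. Also low were the haemoglobin gene Hbb-bs, at or below 0.1 CPM, and the lens gene Cryaa, at or below 0.122. Among the 8 libraries, 24M replicate 3 and 18M replicate 3 stood at opposite ends of the first principal component, at 44.3 and −33.4, and they had the highest and the lowest dependence of expression on transcript GC content. The authors' normalized table leaves out both, together with 12M replicate 4. Results are therefore also given from a fit of the remaining 13 libraries.

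**Figure D1:**
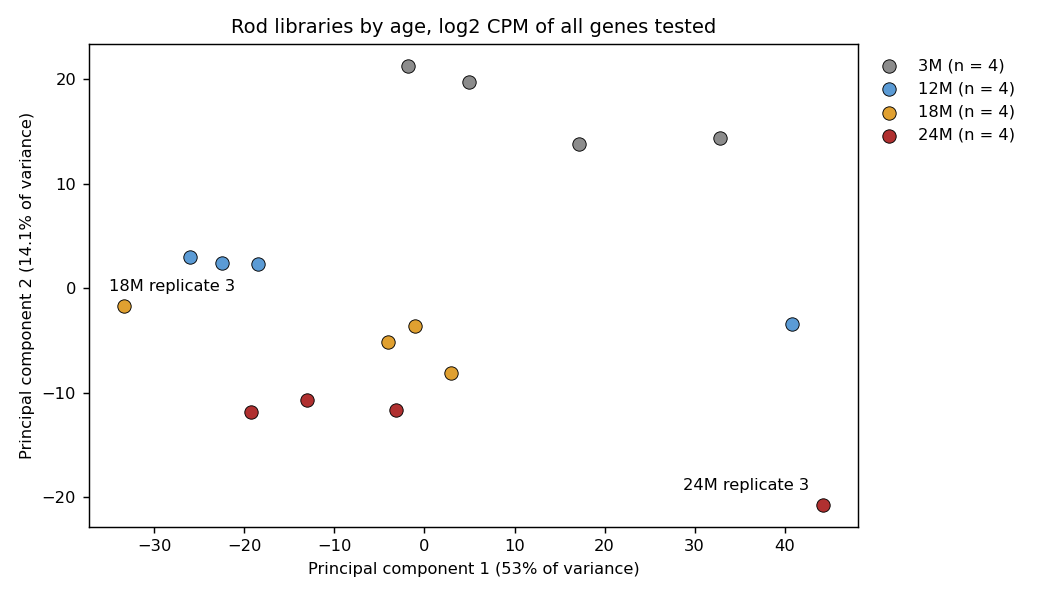
Principal components of log2 CPM over the 12177 genes tested, one point per library, coloured by age. The second component (14.1% of the variance) runs from 3M at the top to 24M at the bottom, and 24M replicate 3 and 18M replicate 3 lie at the right and left ends of the first (53%).

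Along the second component the mean position moved from 17.29 at 3M to 1.06 at 12M, −4.64 at 18M and −13.72 at 24M. The 18M libraries spanned −8.09 to −1.68 and the 24M libraries −20.74 to −10.67, so the last 2 ages did not overlap there, as the plot of the libraries shows. All genes tested entered this component, so this is a description of the libraries and carries no test.

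Between 18M and 24M the rod transcriptome differed by small amounts. Of 12177 genes tested, 0 were called higher and 0 lower at 24M (0.0% and 0.0% of the genes, by edgeR's quasi-likelihood test at a Benjamini-Hochberg adjusted p under 0.05), and the smallest adjusted p was 0.053. At an unadjusted p under 0.05, 404 genes were higher (3.32%) and 276 lower (2.27%). DESeq2 called 17 genes higher and 18 lower. The median log2 fold change was −0.007, with quartiles of −0.11 and 0.10, and 48.2% of the genes lay above 0. The 95% interval of the log2 fold change lay within a 2-fold change in either direction for 11826 genes (97.1%), so for these genes a larger difference lies outside the interval. All 4 libraries of 24M stood above all 4 of 18M for 296 genes (2.43%) and below them for 204 (1.68%).

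For scale, the same fit called 119 genes higher (0.977%) and 50 lower (0.411%) at 12M than at 3M, and 1 gene higher (0.00821%) and 0 lower (0.0%) at 18M than at 12M. The smallest adjusted p of that middle step was 0.0019, and 271 genes passed an unadjusted p of 0.05, against 1114 at 12M against 3M. The median absolute log2 fold change was 0.13 for 12M against 3M, 0.06 for 18M against 12M and 0.10 for 24M against 18M. These steps cover 9, 6 and 6 months. Differences between the sizes of the steps were not tested as such.

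At least a 2-fold difference was fitted for 3 genes higher (Edn2, Gm38356 and Snord1c) and 7 lower (Gm29216, Srp54a, Shc4, Gm10800, Gm14440, Gm24253 and Gm3055) at 24M, and these were named after their values were seen. The extreme case was Gm29216, an unprocessed pseudogene on the minus strand at chr1:24615706-24616197 (GRCm38). It stood at 27.7, 49.7, 35.2 and 20.4 CPM in the 4 libraries of 18M and at 0, 0, 3.26 and 0 at 24M, without overlap. Its log2 fold change was −5.32 with an SE of 1.02, and edgeR gave an adjusted p of 0.19. The edgeR fit of 13 libraries, in which each 24M value was 0, called it lower (−12.63, adjusted p 0.022). Over the life course it was not in one direction, since its mean was 2.6 CPM at 3M and 23.5 at 12M.

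The sequence of Gm29216 bears on this value, because it is a nuclear copy of mt-Co1, the mitochondrial gene of cytochrome c oxidase subunit I. Of its 492 bases, 486 (98.8%) equal positions 1054 to 1545 of mt-Co1 (chrM:5328-6872), and all 6 differences lie at its 5′ end. The first 60 compared bases of both are shown 5′ to 3′ from the GENCODE transcripts of GRCm38, with the differing bases in capitals.
Gm29216: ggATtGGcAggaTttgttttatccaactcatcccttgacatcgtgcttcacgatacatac
mt-Co1: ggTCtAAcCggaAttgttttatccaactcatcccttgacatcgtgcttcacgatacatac
Of the 462 stretches of 31 bases in Gm29216, 449 (97.2%) also occur in mt-Co1, so few stretches of that length tell them apart. The level of mt-Co1 was 894, 1021, 724 and 566 CPM at 18M and 959, 1174, 504 and 1039 at 24M. These ranges overlapped. The estimate for Gm29216 is therefore uncertain, and how its counts were divided between the 2 loci was not tested.

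Srp54a, which codes for a subunit of the signal recognition particle that guides secreted proteins to the endoplasmic reticulum, is in a similar position. It stood at 47.0, 52.8, 52.5 and 37.7 CPM at 18M and 33.7, 6.79, 15.1 and 32.9 at 24M. The 24M libraries formed a high and a low pair, all below 18M (log2 fold change −1.10, SE 0.36, edgeR adjusted p 0.68). Of its 5336 stretches of 31 bases, 3867 (72.5%) also occur in its near-identical copies Srp54b or Srp54c. Those copies were at 260 to 282 and 82.5 to 109 CPM at 18M and at 208 to 277 and 56.4 to 91.7 at 24M, so the value for Srp54a is uncertain.

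Among protein-coding genes with at least 5 CPM on average and no overlap between the ages, the largest difference upwards was that of Edn2, which codes for endothelin 2, a vasoactive peptide that photoreceptors are known to make after injury. Edn2 stood at 3.28, 3.31, 2.66 and 2.94 CPM at 18M and 7.76, 5.66, 15 and 9.05 at 24M. Each 24M library lay above each 18M library, with 24M replicate 3 highest. The means were 3.05 ± 0.309 and 9.37 ± 4.01 CPM (SD, n = 4), and the log2 fold change was 1.62 with an SE of 0.29 (edgeR adjusted p 0.17; DESeq2 adjusted p 0.00016). In the 13-library fit with a filter of 1 CPM, chosen after seeing the data, it was 1.23 (SE 0.25, adjusted p 0.081). Edn2 reached 5 CPM in the 24M libraries alone, so it entered the test through the age at which it was high. It had differed little at 12M (log2 fold change 0.17 against 3M) and at 18M (0.08 against 12M), and at 24M against 3M it rose by 1.87 (adjusted p 0.00073). The edgeR contrast of the last step with the 12M to 18M step was 1.55 (adjusted p 1.0). Edn2 lies at chr4:120161206-120167360.

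Gadd45b, a stress-induced gene of the growth arrest and DNA damage family, was at 3.57, 4.77, 2.53 and 3.28 CPM at 18M and 6.15, 5.32, 8.65 and 6.09 at 24M. The ages did not overlap, and 24M replicate 3 was again highest (log2 fold change 0.89, SE 0.24, edgeR adjusted p 0.45). This gene also passed the filter through its 24M libraries alone. In the 13-library fit with a filter of 1 CPM, its log2 fold change was 0.59 (SE 0.20, edgeR adjusted p 0.20). Its relative Gadd45a was lower at 24M (log2 fold change −0.21, adjusted p 0.80), with ages that overlapped.

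Gnb3 codes for the transducin beta subunit of cones and ON bipolar cells. It was at 19.1, 19.8, 18.4 and 23.4 CPM at 18M and 24.6, 30.3, 42.6 and 30.1 at 24M, a difference of 0.66 in log2 (SE 0.17, edgeR adjusted p 0.44; 0.45 in 13 libraries). The other 9 cone markers summed to 74.6, 68.7, 74.7 and 72.2 CPM at 18M and 59.7, 80.1, 62.3 and 74.4 at 24M. Those sums overlapped, so the cone list as a whole did not share the separation of Gnb3. The bipolar marker sums, given above, overlapped as well.

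The 10 largest differences upwards also held channel, motor and regulatory genes. Cacna1s, the pore subunit of a calcium channel known from skeletal muscle, was at 5.64 to 6.97 CPM at 18M and 7.89 to 10.3 at 24M (log2 fold change 0.62, SE 0.16, adjusted p 0.44). Myh7b, a myosin heavy chain, was at 3.76 to 4.54 and 5.61 to 7.43 CPM (0.60, SE 0.16, adjusted p 0.45), and it reached 5 CPM in all 24M libraries and in none of 18M. Myo5b, a motor of membrane recycling, was at 11.1, 11.6, 10.4 and 10.9 CPM at 18M and 15.2, 14.7, 18.9 and 17.7 at 24M. The difference of 0.59 in log2 (SE 0.11) had an edgeR adjusted p of 0.17 and a DESeq2 adjusted p of 0.0013. Zfp703, a zinc finger regulator of transcription, stood at 16.5 to 22.5 and 24.2 to 35.2 CPM (0.59, SE 0.13, adjusted p 0.28). Tmem184b, a membrane protein, had 7.01 to 9.49 and 10.1 to 14.5 CPM (0.59, adjusted p 0.44), and Gm29609, a gene model that spans Gtf3c2 and Mpv17 on the same strand and whose counts are therefore uncertain, had 6.55 to 8.09 and 8.88 to 13.0 CPM (0.63, adjusted p 0.45).

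The smallest p of the comparison belonged to Tmem116, a transmembrane protein that was singled out after its values were seen. It stood at 22.3, 21.2, 20.5 and 24.5 CPM at 18M and at 34.1, 29.5, 33.4 and 33.6 at 24M. The 24M libraries lay close together and clear of 18M, with a log2 fold change of 0.56, an SE of 0.08 and an edgeR adjusted p of 0.053. In the 13-library fit it was 0.52 with an adjusted p of 0.035. Adam1b, a disintegrin gene whose 3338 bases lie within Tmem116 on the opposite strand, was at 13.6 to 19.7 and 21.0 to 28.2 CPM (0.60, SE 0.17, adjusted p 0.54). The sources used here do not give the strand setting of the counting, so reads of the pair cannot be told apart.

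**Figure D2:**
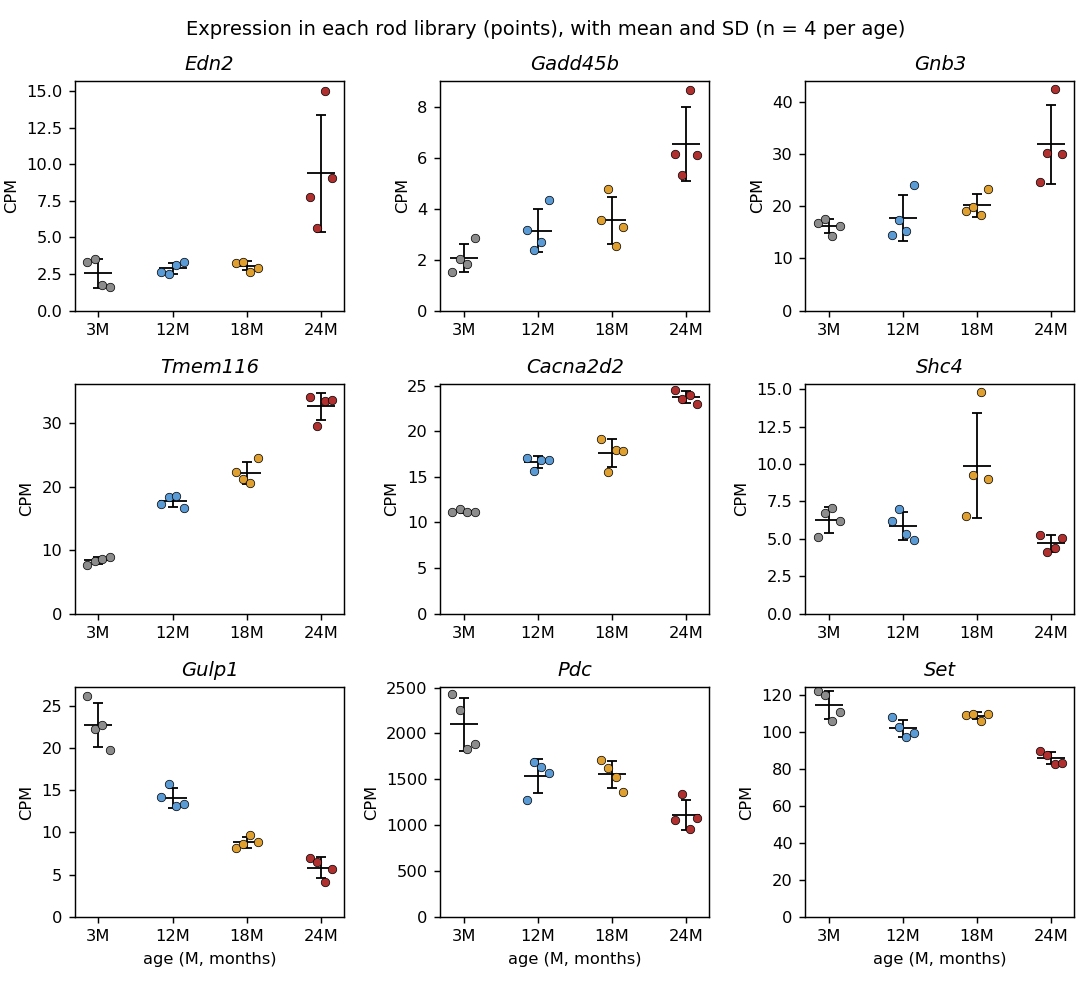
CPM of 9 genes in each library at 3M, 12M, 18M and 24M on linear axes from 0, one point per library, with the mean (bar) and SD (n = 4 per age). Edn2 leaves its earlier level at 24M, Tmem116 and Cacna2d2 are higher at 12M than at 3M and highest at 24M, and Shc4, Gulp1, Pdc and Set are lower at 24M than at 18M.

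Downwards, Shc4, which codes for a signalling adaptor of receptor tyrosine kinases, stood at 6.52, 9.24, 14.8 and 9.01 CPM at 18M and 5.27, 4.09, 4.40 and 5.04 at 24M. The highest value was that of 18M replicate 3, and the ages did not overlap (log2 fold change −1.07, SE 0.21, edgeR adjusted p 0.19; DESeq2 adjusted p 0.0016; −0.77 in 13 libraries). Shc4 had been higher at 18M than at 12M by 0.76, and at 24M it differed from 3M by −0.42 (edgeR adjusted p 0.40). It shares 1691 bases with Eid1 on the opposite strand. Eid1 averaged 110 CPM over both ages, with a log2 fold change of −0.32. Without the strand setting of the counting, reads of the pair cannot be told apart, so the value for Shc4 is uncertain.

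Pdc codes for phosducin, which binds the transducin beta-gamma subunits and is abundant in rods. It was at 1710, 1620, 1530 and 1360 CPM at 18M and 1060, 1340, 954 and 1080 at 24M. Every 24M library lay below every 18M library (log2 fold change −0.49, SE 0.13, edgeR adjusted p 0.45; −0.43 in 13 libraries), and against 3M Pdc fell by 0.92 (adjusted p 0.00041). It overlaps the antisense transcript 2310030A07Rik over 13226 bases. That transcript averaged 70.1 CPM over both ages, with a log2 fold change of −0.34, and reads of this pair cannot be told apart either.

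Rorb, a nuclear receptor needed for rod development, was at 360, 306, 483 and 321 CPM at 18M and 271, 289, 147 and 278 at 24M. The ages did not overlap, but the extremes were 18M replicate 3 and 24M replicate 3. Its log2 fold change was −0.58 (SE 0.24, adjusted p 0.85), and without the libraries that stand apart it was −0.23. Gulp1, an adaptor of engulfment, stood at 8.14 to 9.68 CPM at 18M and 4.17 to 7 at 24M (−0.61, SE 0.14, adjusted p 0.30; −0.43 in 13 libraries).

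The other genes of the 10 largest differences downwards follow. G530012D18Rik had a log2 fold change of −0.88 (−0.48 in 13 libraries), with 18M replicate 3 highest at 23.4 CPM and 24M replicate 3 lowest at 4.99. Aqp7, a water and glycerol channel, had −0.54 (−0.29 in 13 libraries). Rps27l, a ribosomal protein paralogue, had −0.48, Prr15l −0.47 and Mtus1, a microtubule-associated protein, −0.44. Their edgeR adjusted p-values lay between 0.54 and 0.78. Rps27l reached 5 CPM in all 18M libraries and in none of 24M, so it passed the filter only with the age at which it was high.

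**Figure D3:**
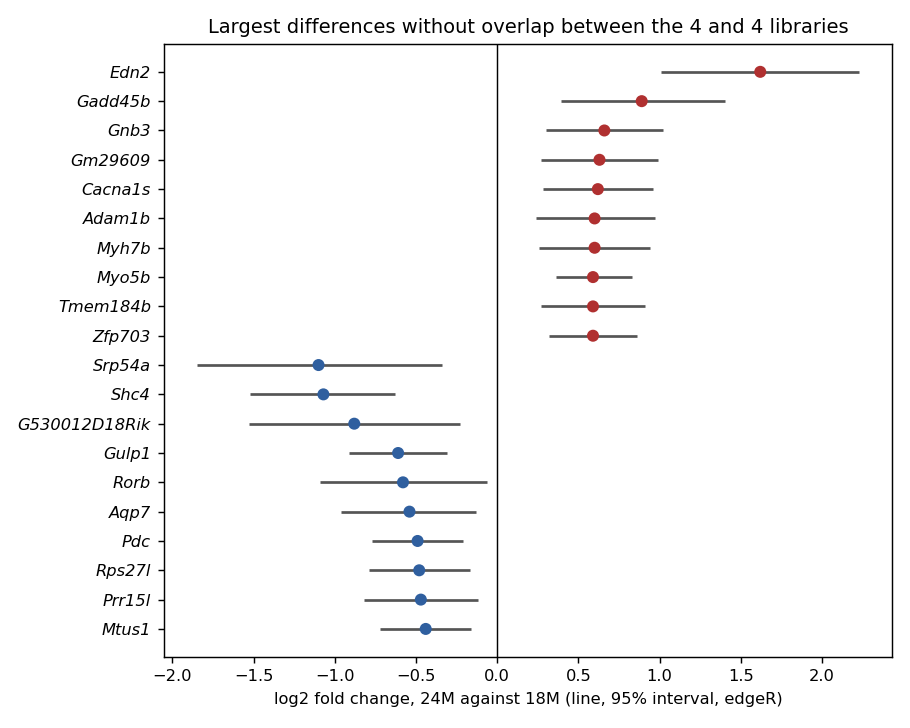
Log2 fold change at 24M against 18M (point) with its 95% interval (line) from edgeR, for the 10 largest differences in each direction among protein-coding genes without overlap. The intervals are not adjusted for the 12177 genes tested, and they run from 1.01 to 2.23 for Edn2 and from −1.09 to −0.06 for Rorb.

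Which of the earlier changes went further can be asked without a shared library for the genes called between 3M and 12M. Of the 119 genes called higher at 12M, 97 (81.5%) had a log2 fold change above 0 at 24M against 18M, where 48.2% of all genes tested did. Their median at this last step was 0.14 (quartiles 0.03 and 0.28), against 0.83 at 12M against 3M and 0.15 at 18M against 12M. An unadjusted p under 0.05 was reached by 30 of them upwards and 0 downwards (3.32% and 2.27% over all genes), and 22 had libraries that did not overlap upwards and 0 downwards (2.43% and 1.68% over all genes). By library, the median of the set relative to the 18M mean was 0.23, 0.16, 0.00 and 0.17 in 24M replicates 1 to 4. Thus 24M replicate 3 stood at 0 and the others above it. In 13 libraries 101 of 118 were above 0, with a median of 0.21.

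Of the 50 genes called lower at 12M, 33 (66.0%) lay below 0, where 51.8% of all genes did, and their median was −0.05 (quartiles −0.21 and 0.06), after −0.75 and −0.22 at the earlier steps. An unadjusted p under 0.05 was reached by 7 downwards and 1 upwards (2.27% and 3.32% over all genes). Libraries did not overlap for 4 downwards and 2 upwards (1.68% and 2.43% over all genes). Set against the other 18M libraries, 18M replicates 1 to 4 had medians of 0.11, 0.06, −0.14 and −0.07. The median of −0.05 lay within that spread. The medians of 24M replicates 1 to 4 were −0.12, −0.03, 0.02 and −0.09, and in 13 libraries 37 of 50 lay below 0 with a median of −0.08. Leaving out single libraries gave medians of −0.10 to −0.02. When both sets were called by the 13-library fit, an alternative added after seeing the data, the medians were 0.13 for the higher and −0.13 for the lower set. Whether the set of higher genes and the set of lower genes differed in how far they continued was not tested.

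**Figure D4:**
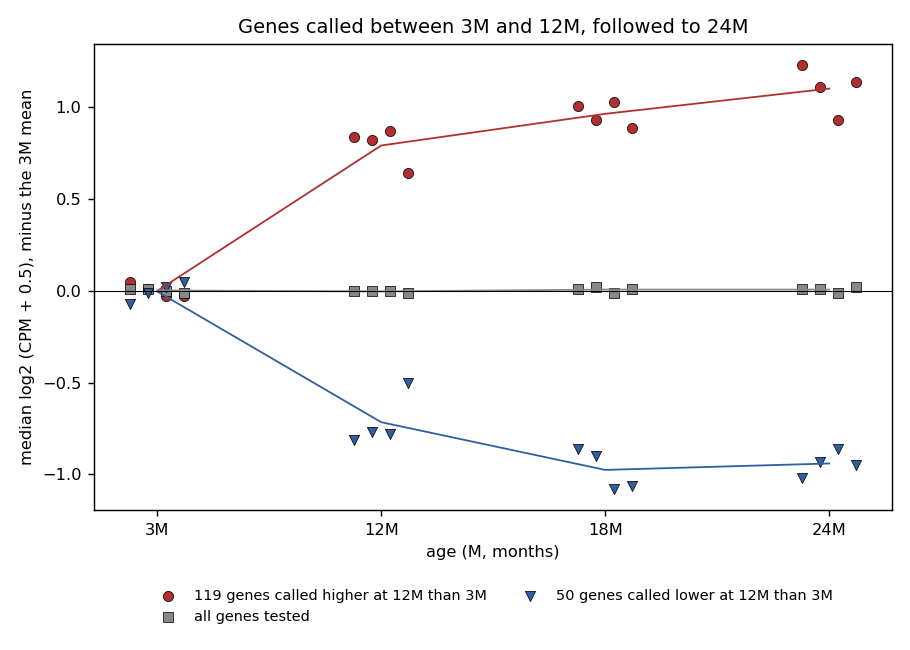
Median log2 (CPM + 0.5) less the 3M mean, per library, for the 119 genes called higher and the 50 called lower at 12M and for all genes tested; lines join the means of each age. The higher set lies at 0.89 to 1.03 at 18M and 0.93 to 1.23 at 24M, while the lower set lies at −1.08 to −0.86 and −1.02 to −0.86.

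Gm28876, a long noncoding RNA gene with the largest rise at 12M (log2 fold change 6.17 against 3M), stood at 7.98, 5.57, 9.29 and 6.65 CPM at 18M and 13.7, 9.45, 13.4 and 12.6 at 24M. The ages did not overlap (log2 fold change 0.73, SE 0.20, edgeR adjusted p 0.50). Others among the 6 largest risers overlapped between 18M and 24M. Calcr, the calcitonin receptor, had a log2 fold change of 0.25, Slc29a4, a monoamine transporter, had 0.25 (0.12 in 13 libraries), Pate2 0.16 (0.43) and Csrp3, a muscle LIM protein, 0.04. Calcr was at 18.4, 15.3, 7.11 and 19.5 CPM at 24M, and without the libraries that stand apart its difference was 0.70. The sign of Csrp3 and Slc29a4 depended on the setting (Csrp3 −0.16 in 13 libraries, Slc29a4 −0.04 with a GC term).

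Several risers of the first year were without overlap between 18M and 24M, and these were picked after their values were seen. Ptprn, a phosphatase-like protein of secretory vesicles, was at 23.2 to 26.2 CPM at 18M and 32.9 to 42.5 at 24M (log2 fold change 0.59, SE 0.13, adjusted p 0.28). Cacna2d2, an auxiliary calcium channel subunit, was at 15.5 to 19.2 and 23 to 24.5 CPM (0.43, SE 0.07, adjusted p 0.17). Prok1, a secreted prokineticin, was at 9.64 to 13.9 and 14.6 to 17.4 CPM (0.55, adjusted p 0.30). Scd1, a fatty acid desaturase, had 4.82 to 6.78 and 7.79 to 10.1 CPM (0.56, adjusted p 0.44). Nav1, a neuron navigator, had a log2 fold change of 0.41 and Stard9, a kinesin, 0.38. Ly75, an endocytic receptor, was at 30.9 to 38.1 and 37.5 to 56.2 CPM, which overlapped through 24M replicate 3 (0.48, adjusted p 0.54; 0.64, adjusted p 0.034 in 13 libraries).

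Among genes that fell in the first year, Serinc5, a serine incorporator of membranes, was at 3.00 to 3.65 CPM at 18M and 2.53 to 2.65 at 24M (log2 fold change −0.37, SE 0.12, adjusted p 0.69). Tbc1d9, a regulator of Rab proteins, was at 3.95 to 5.06 and 2.33 to 3.69 CPM (−0.58, adjusted p 0.44). Prdm1, the transcription factor that steers precursors towards photoreceptors, was at 8.24 to 10.1 and 4.28 to 8.61 CPM, which overlapped (−0.55, adjusted p 0.54). Other large fallers of the first year lay on both sides of 0, with Dnaic2 at −0.34 (−0.73 in 13 libraries), Dusp26 at −0.31 (−0.46), Spaca6 at −0.09, Neurl1a at −0.08 (−0.26) and Plekhh2 at 0.29. For Spaca6 the sign turned in 13 libraries (0.12). Serinc5, Dnaic2, Dusp26, Neurl1a and Plekhh2 reached 5 CPM in no library of 18M or 24M. They entered the test through younger libraries, and their values at the last step are those of low counts. Tbc1d9 reached 5 CPM in 1 library of 18M and 0 of 24M, so it also passed the filter mainly through younger libraries.

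Of the genes that fell in the first year, the 1 with an unadjusted p under 0.05 upwards at the last step was 1110038B12Rik, singled out after its values were seen. It fell at 12M (log2 fold change −0.88 against 3M, adjusted p 0.029), was higher by 0.33 at 18M, and stood at 136, 134, 73.0 and 103 CPM at 18M and 202, 237, 239 and 151 at 24M. All 24M libraries lay above all 18M libraries (0.89, SE 0.19, edgeR adjusted p 0.28), and 24M differed from 3M by 0.34 (adjusted p 0.47).

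The step to 24M was also tested against the step from 12M to 18M. No gene was called with 18M above the midpoint of 12M and 24M (0, 0.0%) or below it (0, 0.0%), the smallest adjusted p of edgeR was 0.74, and 312 genes passed an unadjusted p of 0.05. DESeq2 called 3 and 1, and the fit of 13 libraries called 242 and 46, so this count depended on the libraries that stand apart.

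At 18M against 3M, 205 genes were called higher (1.68%) and 117 lower (0.961%). The 18M libraries enter both comparisons, so the following values stand side by side only. Hspa2, a heat shock protein, had a log2 fold change of 0.32 at 24M against 18M, Nod2, an innate sensor, 0.33, Col4a3, a type IV collagen chain, 0.22, Rnf43, a brake on Wnt receptors, 0.37 and H2-K1, a class I histocompatibility chain, 0.56. Among genes lower at 18M, Sestd1 was at −0.60 and Atp8b2, a phospholipid flippase, at −0.68. Neither reached 5 CPM in any library of 18M or 24M, so both entered the test through younger libraries. Atp8b2 stood at 1.97 to 3.04 CPM at 18M. H2-K1 and Rnf43 were highest in 24M replicate 3, and in 13 libraries they were at 0.26 and 0.20. There Hspa2 was at 0.17, Nod2 at 0.22, Col4a3 at 0.44, Sestd1 at −0.33 and Atp8b2 at −0.64. The count of genes called at 24M against 3M was 323 higher (2.65%) and 195 lower (1.6%).

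Gene families were described by how many of their tested members lay above or below 0 and by their median, beside 48.2% above 0 and a median of −0.007 over all genes. In none of the families did a member pass the adjusted threshold. Of 21 rod phototransduction genes 9 were higher and 12 lower, with a median of −0.06 (−0.11 in 13 libraries). Members below 0 at an unadjusted p under 0.05 were Pdc and Gngt1, the rod transducin gamma subunit (log2 fold change −0.29, adjusted p 0.83). Gnat1, the rod transducin alpha subunit, was at 0.11 (adjusted p 0.95) and below 0 in 13 libraries (−0.10). Of 14 photoreceptor transcription factors 6 were higher and 8 lower (median −0.02), with Prdm1 and Rorb the members below 0 at an unadjusted p under 0.05. Over all genes, 2.27% were lower at that threshold.

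Nxnl2, a thioredoxin-like factor of rods that supports photoreceptor survival, was at 47.6, 48.0, 34.6 and 42.9 CPM at 18M and 29.5, 30.3, 37.4 and 30.4 at 24M. The ages overlapped through 18M replicate 3 and 24M replicate 3 alone (log2 fold change −0.44, SE 0.14, adjusted p 0.57), and in 13 libraries Nxnl2 was called (−0.62, adjusted p 0.00067). That fit called 3 genes higher, Ly75, Veph1 and Tmem116, and 9 lower, among them Nxnl2 and Gm29216, whose estimate is uncertain. Spry2, a brake on growth factor signalling, was also called lower (−0.56, adjusted p 0.034). So were Hmgn1, a nucleosome-binding protein (−0.47, adjusted p 0.034), and Uqcc3, an assembly factor of respiratory complex III (−0.45, adjusted p 0.034). Veph1, Spry2, Hmgn1 and Uqcc3 were picked after their values were seen.

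All 6 tested genes of type IV collagen and basement membrane lay above 0, with a median of 0.20 (0.22 in 13 libraries). Lamc1, the laminin gamma 1 chain, was at 34.7 to 38.1 CPM at 18M and 42.0 to 44.9 at 24M without overlap (log2 fold change 0.23, adjusted p 0.70), whereas Agrn (0.42, and 0.20 in 13 libraries) and Col4a3 overlapped. The list holds 23 genes, of which 17 did not pass the filter on low values. Agrn reached 5 CPM in 1 library of 24M and 0 of 18M. Of 30 protocadherins and cadherins, 24 were above 0 with a median of 0.12. Their median was 0.28, 0.21, −0.32 and 0.19 in 24M replicates 1 to 4, so 24M replicate 3 alone was below 0, and in 13 libraries the median was 0.29. Of the 30, 20 are Pcdhg genes whose annotated spans overlap on the same strand of 1 locus, so they are not separate observations, and 19 of them were above 0 (median 0.14). Of the other 10 members 5 were above 0 (median −0.04).

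Members of the immune lists lay mostly above 0, by small amounts. Of 14 class I antigen presentation genes, 9 were above 0 (median 0.09, and 0.17 in 13 libraries). H2-K1, Tap2, the peptide transporter (0.36), and H2-Q4 (0.35) were higher at an unadjusted p under 0.05, as 3.32% of all genes were. The list medians of 24M replicates 1 to 4 were 0.09, 0.20, −0.05 and 0.12. Summed over the list, CPM was 474 to 529 at 18M and 466 to 560 at 24M, which overlapped. Of 13 interferon and innate sensing genes, 11 were above 0 (median 0.07), and 24M replicate 3 had the highest library median, 0.29. Mavs (0.23, and 0.07 in 13 libraries) and Irf9 (0.23, and 0.12) were among them. Of 5 photoreceptor injury signals 4 were above 0 (median 0.12), but Edn2 is counted there only because its 24M libraries passed the filter on low values. The list also holds Stat3, a transcription factor of cytokine signalling, at 48.5 to 57.2 CPM at 18M and 57.0 to 67.8 at 24M, which overlapped (0.23, adjusted p 0.65; 0.15 in 13 libraries). All 3 tested complement and acute phase genes were above 0, with C2 at 0.30. In the counts, the class I, interferon, injury and complement lists hold 23, 32, 15 and 15 genes. Those not tested did not pass the filter on low values. The microglia marker sums overlapped between the ages, and their part in these values was not tested.

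Of 50 autophagy and lysosome genes, 39 were above 0 (median 0.09), but the median was 0.01 in 13 libraries and the library medians were −0.01, 0.09, 0.26 and 0.04. Tpp1, a lysosomal peptidase, was at 37.2 to 40.5 CPM at 18M and 41.5 to 47.9 at 24M without overlap (log2 fold change 0.20, 0.20 in 13 libraries, adjusted p 0.57). Ctsa was at 0.34 (0.21 in 13 libraries), Atg7 at 0.24 (0.21) and Atg3 at −0.25 (−0.09). Cholesterol synthesis and transport had 20 of 30 genes above 0 (median 0.11, and −0.01 in 13 libraries). Npc1, which exports cholesterol from lysosomes, was at 84.6 to 89.5 and 95.7 to 104 CPM (0.22, adjusted p 0.54), and Abca1, a cholesterol exporter, was at 127 to 154 and 149 to 236 CPM (0.43, adjusted p 0.71; 0.58 in 13 libraries). Of 183 solute carriers 105 were above 0 (median 0.03), with 12 higher and 2 lower at an unadjusted p under 0.05 (3.32% and 2.27% over all genes), among them Slc26a8 (0.35), Slc43a2 (0.31) and the copper transporter Slc31a2 (0.27).

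Below 0 lay most splicing factors, 46 of 65, with a median of −0.07 (−0.06 in 13 libraries). Their median was below 0 in each 24M library, from −0.09 to −0.04. Hnrnpm was at 329 to 348 CPM at 18M and 266 to 299 at 24M (log2 fold change −0.22, edgeR adjusted p 0.54, DESeq2 adjusted p 0.0032), and Hnrnpa1 (−0.28) and Luc7l (−0.21) were also without overlap. Of 44 chaperones 31 were below 0 (median −0.09, and −0.14 in 13 libraries), such as Dnaja2 (−0.25) and Dnajc7 (−0.15). Hsf1, the transcription factor of the heat shock response, lay above 0 (0.33, adjusted p 0.71; 0.15 in 13 libraries), with 24M replicate 3 highest at 54.7 CPM. Of 49 ciliary transport genes 34 were below 0 (median −0.06), but the median was 0.00 in 13 libraries. Kif3b, a kinesin subunit, was at 170 to 175 and 152 to 160 CPM (−0.14, adjusted p 0.84).

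Of 35 nuclear subunits of respiratory complex I, 23 were below 0. Their median was −0.05 in 16 libraries and −0.21 in 13, and by library −0.24, 0.01, 0.19 and −0.14, so 24M replicate 3 was on the other side of 0 from replicates 1 and 4. Ndufb3 was at 7.18 to 10.6 CPM at 18M and 6.47 to 6.89 at 24M (log2 fold change −0.41, SE 0.12, adjusted p 0.54). Of 25 genes of the tricarboxylic acid cycle 13 were below 0, with Sucla2 (−0.28, and −0.18 in 13 libraries) and Pdha1 (−0.18) without overlap. Of 18 circadian clock genes 11 were above 0 (median 0.04, and −0.01 in 13 libraries). Tef was at 72.2 to 87.1 and 92.1 to 106 CPM (0.25, adjusted p 0.48, and 0.16 in 13 libraries). Per1 had a log2 fold change of 0.35 (0.15 in 13 libraries). The sources used here do not give the time of day of collection.

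For other families the size or the direction of the median depended on the libraries that stand apart. Cytosolic ribosomal proteins had a median of −0.00 in 16 libraries and −0.21 in 13, glycolysis 0.00 and −0.21, and clustered histone genes 0.12 and −0.11. Zfp zinc finger genes had 227 of 322 members below 0 and a median of −0.08, against 0.04 in 13 libraries. Transcripts of the mitochondrial genome had a median of 0.02 and 0.30, and 24M replicate 3 was at −0.82. Immediate early genes had 0.08 and −0.25, and by library −0.13, −0.12, 0.61 and −0.04 in 24M replicates 1 to 4. For the lists, 40 of 68 medians were above 0 in the 16-library fit, and 38 of 68 kept their sign in 13 libraries.

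**Figure D5:**
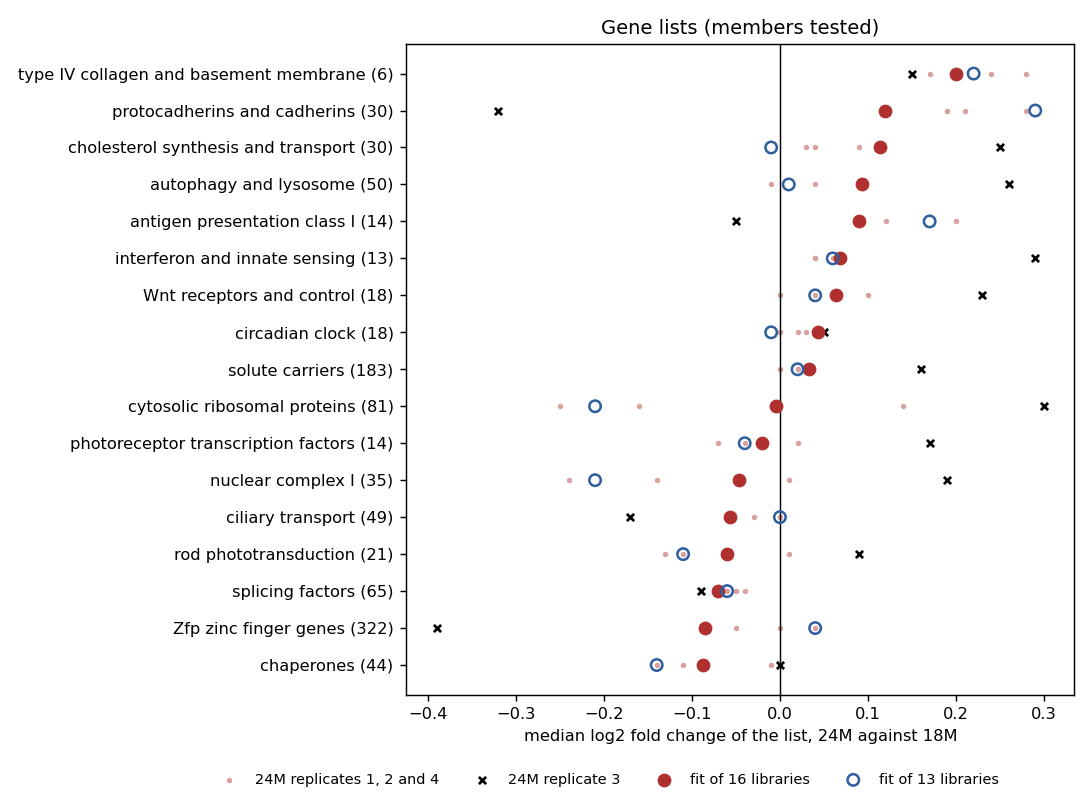
Median log2 fold change at 24M against 18M of gene lists, with the number of members tested; large filled points are the 16-library fit, open points the 13-library fit, small points 24M replicates 1, 2 and 4, and crosses 24M replicate 3. Splicing factors lie below 0 in every 24M library and basement membrane genes above 0, while for ribosomal proteins and Zfp genes the cross lies far from the other points.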

How the data were processed

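Members and gene lists were chosen with earlier results of these data known. The authors deposited estimated counts per transcript. The tools kallisto 0.42.5, limma 3.32.2 and edgeR 3.13.9 and the build GRCm38.p4 come from the submitters' processing notes, which give them no role here. A table the authors deposited holds a CPM signal per gene, and their normalized table covers 13 libraries. The sources used here do not give the strand setting.

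Of 113468 transcripts, 111896 were matched to GENCODE genes of GRCm38; the rest held 0.73% to 1.08% of a library. Summing to genes gave 45038, whose values were rounded. A gene was kept if 4 or more libraries held 5 CPM of it. The 12177 kept were tested with edgeR 4.0.16 (R 4.3.3), using TMM factors and 1 coefficient per age fitted to the 16 libraries, with Benjamini-Hochberg adjustment. The common biological coefficient of variation was 0.169. Intervals cover the spread between libraries. No pair of libraries agreed within sampling noise (lowest chi-square per gene 8.99). Totals were 20579144 to 28791777 estimated counts per library, so 5 CPM stands for over 100 counts.

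The rule for named genes took, in a direction with under 10 calls, the 10 protein-coding genes with the largest difference, at least 5 CPM and no overlap. It also took the 6 largest risers and fallers at 12M and 8 of each at 18M, up to 4 members of each list by smallest p, and a fixed set. Some of these are not reported here; genes outside the rule are marked as picked after their values were seen. Alternatives were DESeq2 1.42.0, limma 3.58.1 voom with and without quality weights, DESeq2 size factors, minimums of 1 CPM or none, the compared ages alone, a replicate block, limma on the authors' deposited CPM signal on the log2 scale with pseudocounts of 0.5 and 2, the 13 libraries, transcript length or GC slopes as covariates, and each library left out. The tests were tested on simulated data.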

Additional observations from a re-analysis of the deposited data

Results flagged for a closer look

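In groups of 4 libraries, the highest or lowest was set against the rest by its gap to the nearest other library over the group's range (Dixon's criterion at 95%). Of 210 groups checked, 18 (8.57%) passed, and 12 of the 18 were values of 24M replicate 3. For independent groups, chance alone passes about 1 in 20. The groups here share libraries, and many genes were chosen by these same values, so the shares cannot be compared.

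In that library Rorb stood lowest at 147 CPM (nearest 271), Atg3 at 36.8 (48.3), Hnrnpm at 266 (296), Sucla2 at 33.0 (43.6) and Calcrl, a calcitonin receptor-like receptor, at 2.87 (3.59). H2-K1 stood highest at 13.4 CPM (8.23), Rnf43 at 31.7 (24.5), Per1 at 123 (87.7), Ctsa at 38.7 (30.3), Nxnl2 at 37.4 (30.4) and Gm29216 at 3.26, the others being at 0. Its place on the second principal component, −20.74, was also apart from the nearest, −11.84.

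The remaining groups were Tmem116 at 29.5 CPM in 24M replicate 2, Nav1 at 48.2 and Slc43a2 at 40.9 in 18M replicate 2, and Atp8b2 at 1.97 and Hnrnpa1 at 149 in 18M replicate 4, each the lowest of its age. The GC slope of 18M replicate 3, −0.304, was the lowest of its age.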

How the results depend on the processing

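The numbers called at 24M against 18M, 0 higher and 0 lower, became 17 and 18 with DESeq2, 1 and 0 with voom, 218 and 362 with quality weights, 0 and 1 on the authors' CPM plus 0.5, 1 and 2 on CPM plus 2, 3 and 9 in 13 libraries, 48 and 30 with the length slope, and 73 and 70 with the GC slope. DESeq2 size factors, a minimum of 1 CPM, no filter and the compared ages alone gave 0 and 0. Leaving out a library gave 0 to 1 higher (Tmem116, without 12M replicate 4) and 0 lower. Genes with 18M above or below the midpoint numbered 3 and 1 with DESeq2, 1023 and 436 with quality weights, 242 and 46 in 13 libraries, 12 and 2 with the length slope, 13 and 2 with the GC slope, and 0 with any library left out. Intervals within 2-fold numbered 18912 with no filter, where more genes are tested, and 11486 to 11941 with a library left out. The 322 genes called at 18M against 3M became 528 with DESeq2, 1110 with quality weights, 705 in 13 libraries, 663 with the length slope, 1106 with the GC slope, and 202 (without 3M replicate 3) to 510 (without 12M replicate 4) with a library left out; it was 211 without 3M replicate 2. The genes called lower at 12M had a median of −0.13 when chosen by the 13-library fit (added after seeing the data), and −0.10 to −0.02 with a library left out; those called higher had 0.12 to 0.19. Between 33 and 49 of 68 list medians were above 0 with a library left out. Apart from the fewer or more genes or libraries that a setting itself brings, the cause was not tested.

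Of 99 genes examined, 94 kept their sign throughout. Many of them were chosen for their difference in these same libraries, which the alternatives reuse, so a kept sign says little. Of 68 list medians, 26 kept their sign in all 13 alternatives other than leaving out a library. With quality weights, in 13 libraries, with the GC slope, and in 13 libraries with 1 CPM (added), Csrp3 was −0.13, −0.16, −0.04 and −0.18, and Gnat1 −0.12, −0.10, −0.03 and −0.12. Spaca6 was 0.12 with quality weights, 0.01 on either authors' CPM, 0.12 in 13 libraries and 0.10 with 1 CPM. Slc29a4 was −0.04 with the GC slope. With a library left out, Csrp3 ranged from −0.08 to 0.13, Spaca6 from −0.18 to 0.04, Neurl1a from −0.19 to 0.09 and Gnat1 from −0.04 to 0.18.

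With the replicate number as a block, 0 genes were called higher and 0 lower. Deviations of same-numbered 18M and 24M libraries correlated at −0.311, 0.086, −0.744 and −0.393, and the numbers share no stated origin, so they were not taken as pairs.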

Other observations

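Set and 3 Anp32 genes, picked after their values were seen, had 24M libraries that all lay below those of 18M, as 1.68% of all genes did, and none passed edgeR's adjusted threshold. Other histone chaperones were not tallied. Set, an inhibitor of protein phosphatase 2A that also binds histones, stood at 109, 110, 106 and 110 CPM at 18M and 89.6, 87.7, 82.9 and 83.1 at 24M (log2 fold change −0.34, SE 0.06, edgeR adjusted p 0.17, DESeq2 adjusted p 3.8e-05). Of the Anp32 genes, Anp32a was at 503 to 564 and 427 to 458 CPM (−0.26), Anp32b at 64.4 to 72.2 and 48.0 to 59.3 (−0.35) and Anp32e, which removes the variant H2A.Z from chromatin, at 340 to 371 and 279 to 313 (−0.28). In 13 libraries the 4 genes were at −0.34, −0.25, −0.39 and −0.30. Over single omitted libraries Set ranged from −0.36 to −0.33.

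Mmp2, a matrix metalloproteinase, was at 11.6 to 13.0 CPM at 18M and 9.85 to 10.5 at 24M without overlap (log2 fold change −0.29, adjusted p 0.70). Igf2, an insulin-like growth factor, was at 4.33 to 5.87 and 6.29 to 7.28 CPM (0.37, adjusted p 0.81). Zfp687, a zinc finger protein, was at 71.7 to 77.3 and 84.9 to 98.7 CPM (0.29, edgeR adjusted p 0.31, DESeq2 adjusted p 0.020), against the lower median of its family. Znrf3, which like Rnf43 removes Wnt receptors, was at 13.1 to 14.3 and 14.8 to 16.8 CPM (0.21, adjusted p 0.83). Cbx1, a heterochromatin protein, had a log2 fold change of −0.23 (adjusted p 0.62).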
